A study of Mus musculus with 10 samples.

Results

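The 110 small nucleolar RNA (snoRNA) genes were followed here through the lungs of 10 mice. They were all genes of the count table whose symbol begins with Snora or Snord and a number, 110 of 24059 gene symbols. The 74 Snord genes form the C/D class and the 36 Snora genes the H/ACA class. Earlier results on these mice had shown that the share of reads on these genes follows the main spread between samples. The genes were thus chosen by that share, which is given with its spread as a description, without a test.

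Lung RNA was sequenced from female C57Bl/6 mice, 14 weeks old, after 8 weeks on 1 of 2 high-fat semipurified diets, each with 19% fat by weight and with added cholesterol. The FO diet (5 mice, FO1 to FO5) drew its fat from menhaden fish oil, a source of n-3 polyunsaturated fatty acids, with some corn oil. The CO diet (5 mice, CO1 to CO5) drew most of its fat from coconut oil, which is rich in saturated fat, with some olive and corn oil. Both groups had the airways tested before the lungs were flushed with saline for RNA, no group was kept on ordinary chow, and each library came from 1 mouse.

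snoRNAs are short RNAs of the nucleolus that are mostly cut out of the introns of longer host genes. C/D snoRNAs carry the short C and D boxes, bind fibrillarin and guide the 2'-O-methylation of ribosomal RNA, while H/ACA snoRNAs end in an ACA box, bind dyskerin and guide the conversion of uridine to pseudouridine. They are stable, abundant RNAs that lack a poly(A) tail.

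Only 28 of the 110 genes (25.5%) had a count in any mouse, against 58.9% of all genes in the table. The 28 were 14 C/D and 14 H/ACA genes, and the other 82 were listed at 0 in every mouse. The ribosomal protein genes Rpl3 and Rpl37 were also at 0 in every mouse, so a 0 need not mean that an RNA was absent. Of the 19254 counts on snoRNA genes, Snora81 held 14696 (76.3%) and Snora23 held 4099 (21.3%), both of the H/ACA class. The remaining 26 detected genes shared 459 counts (2.38%).

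The sequences below are those of the leading RNAs of each class by mean share, with a neighbour of Snora81 that had no count. They are from the GENCODE M21 annotation of GRCm38 (mm10, the build the reads were aligned to). Snora81 lies at chr16:23110756-23110933 on the plus strand, 178 bases within Eif4a2, a gene for a translation initiation helicase, where it overlaps an exon of some annotated transcripts. Snora23 lies at chr7:110046364-110046547 on the plus strand, 184 bases in an intron of Ipo7, which encodes a nuclear import receptor. Snora30 lies at chr7:127527874-127528003 on the plus strand, 130 bases in an intron of Srcap, a chromatin remodeller gene. Snord15b lies at chr7:99479563-99479707 on the minus strand, 145 bases within Rps3, a ribosomal protein gene, where it overlaps an exon of an annotated transcript. Snord104 lies at chr11:106500993-106501062 on the plus strand, 70 bases outside any host. Snord2 lies at chr16:23108953-23109021 on the plus strand, 69 bases within Eif4a2, the host of Snora81, and had no count in any mouse. Capitals mark the ACA box (or the ATA in its place) of the H/ACA RNAs, and the TGATGA of box C and the CTGA of box D in the C/D RNAs where those letters were found.
Snora81: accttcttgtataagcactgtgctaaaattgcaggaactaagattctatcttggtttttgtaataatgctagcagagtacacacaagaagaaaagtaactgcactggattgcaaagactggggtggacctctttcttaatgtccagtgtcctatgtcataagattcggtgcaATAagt
Snora23: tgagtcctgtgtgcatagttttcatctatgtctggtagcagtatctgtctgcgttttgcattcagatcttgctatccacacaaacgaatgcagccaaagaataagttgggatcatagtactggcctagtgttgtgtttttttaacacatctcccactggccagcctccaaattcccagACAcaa
Snora30: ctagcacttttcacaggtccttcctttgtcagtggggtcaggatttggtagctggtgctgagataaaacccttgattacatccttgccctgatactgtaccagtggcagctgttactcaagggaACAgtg
Snord15b: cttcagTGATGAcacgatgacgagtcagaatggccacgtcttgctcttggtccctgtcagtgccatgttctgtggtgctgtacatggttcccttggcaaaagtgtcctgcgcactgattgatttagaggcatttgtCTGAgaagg
Snord104: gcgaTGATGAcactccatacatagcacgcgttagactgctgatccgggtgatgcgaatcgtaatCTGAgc
Snord2: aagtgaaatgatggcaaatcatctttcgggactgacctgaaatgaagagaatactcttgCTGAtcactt

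The class given by the symbol was checked against these boxes in the 108 genes with a sequence in the annotation, read on the strand of the RNA. ACA stood within the last 10 bases of 34 of 36 H/ACA genes (94.4%) and 7 of 72 C/D genes (9.72%). The 2 H/ACA genes without it were Snora81 and Snora44, and both have ATA 3 bases before their end. CTGA stood within the last 20 bases of 70 of 72 C/D genes (97.2%) and 4 of 36 H/ACA genes (11.1%). TGATGA, searched in the first 20 bases and so at the other end of the RNA, was found in 46 of 72 C/D genes (63.9%) and in 0 of 36 H/ACA genes. A match is a run of letters and was not tested as a binding site.

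The RNA was that of lung by its marker genes. All 7 genes of a list for alveolar type 2 cells, the surfactant-making cells, had counts, and Sftpc, the most abundant, had 96 to 2188 counts per mouse. All 3 club cell genes, all 5 endothelial genes and all 5 macrophage genes were detected, and of 5 genes for alveolar type 1 cells only Aqp5 was at 0. In whole lung, fewer cells of a type and less RNA per cell cannot be told apart.

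Depth differed between the mice. Rn45s, the precursor of ribosomal RNA, took 69.8%, 57.9%, 87.0%, 78.8% and 69.2% of all counts in FO1 to FO5 and 80.3%, 84.1%, 73.1%, 21.8% and 51.7% in CO1 to CO5. Shares of snoRNA genes are therefore given of the counts outside Rn45s, which numbered 250422, 473254, 46470, 235781 and 91338 in the FO mice and 45177, 55639, 136211, 280686 and 256386 in the CO mice. A count of 0 allows a share of up to 3 counts, which was 0.00664% in CO1, the shallowest mouse, and 0.000634% in FO2, the deepest. Intervals and these limits cover counting error only.

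The snoRNA share differed between mice by up to 28.7 times. It was 0.452%, 2.35%, 0.0990%, 0.426% and 0.108% in FO1 to FO5 and 0.0819%, 0.494%, 1.16%, 0.165% and 1.36% in CO1 to CO5. FO2 was highest (95% exact Clopper-Pearson interval 2.31% to 2.39%), CO5 and CO3 followed, and CO1 was lowest (0.0577% to 0.113%). Each diet held both high and low mice. The mean was 0.687% ± 0.945 (SD, n = 5) in the FO group and 0.653% ± 0.580 (SD, n = 5) in the CO group, and the medians were 0.426% and 0.494%. Snora81 and Snora23 together made up 73.9% to 98.7% of the snoRNA counts of a mouse.

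**Figure D1:**
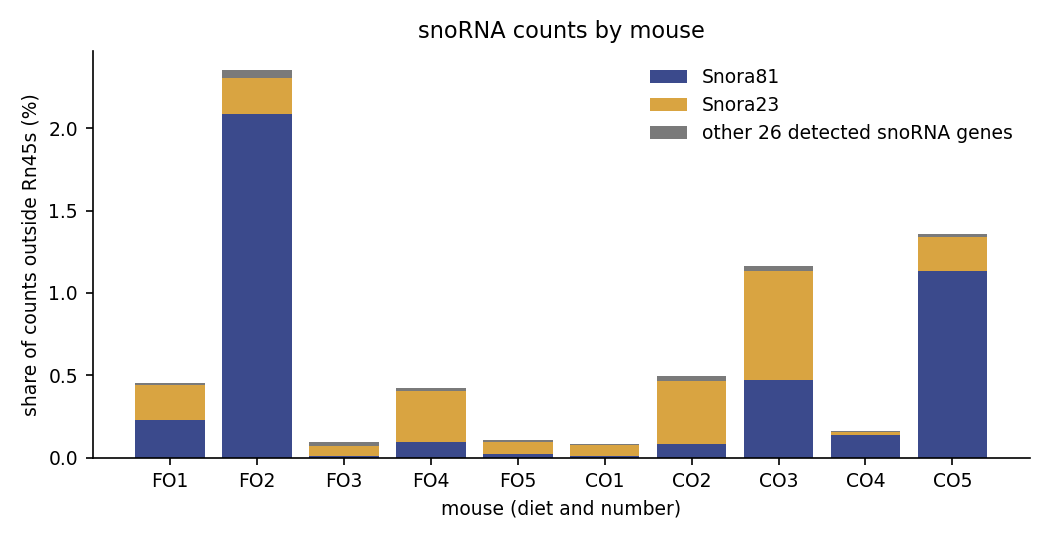
Share of the counts outside Rn45s (%, vertical axis) that fell on Snora81, on Snora23 and on the other 26 detected snoRNA genes in each of the 5 FO and 5 CO mice (horizontal axis). The tallest bar is FO2 at 2.35% and the lowest is CO1 at 0.0819%, and Snora81 fills most of the bars of FO2, CO4 and CO5.

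Snora81 varied most. Its counts were 573, 9883, 5, 232 and 19 in FO1 to FO5 and 4, 46, 641, 381 and 2912 in CO1 to CO5. As shares of the counts outside Rn45s these were 0.229%, 2.09%, 0.0108%, 0.0984% and 0.0208% in the FO mice and 0.00885%, 0.0827%, 0.471%, 0.136% and 1.14% in the CO mice. FO2 stood 236 times above CO1, and the 2 diets overlapped over nearly the whole of that range. The standard deviation of the normalised log2 CPM (counts scaled to library size) of Snora81 over the 10 mice was 2.71, given as a description since the genes were chosen for such a spread.

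Snora23 was spread more evenly over the mice. Its counts were 536, 1006, 29, 728 and 67 in the FO mice and 30, 212, 905, 58 and 528 in the CO mice. The shares were 0.214%, 0.213%, 0.0624%, 0.309% and 0.0734% in FO1 to FO5 and 0.0664%, 0.381%, 0.664%, 0.0207% and 0.206% in CO1 to CO5. CO3 was highest and CO4 lowest, 32.2 times apart, and the diets overlapped again. The standard deviation of its log2 CPM was 1.50.

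The 2 RNAs did not keep a fixed proportion. There were 1.07, 9.82, 0.172, 0.319 and 0.284 Snora81 counts for each Snora23 count in FO1 to FO5 and 0.133, 0.217, 0.708, 6.57 and 5.52 in CO1 to CO5. Snora81 therefore led in FO1, FO2, CO4 and CO5, and Snora23 led in the other 6 mice. CO4, the mouse with the smallest share of Snora23, was the fifth highest for Snora81. FO1 and FO2 had nearly the same Snora23 share, 0.214% and 0.213%, with Snora81 shares of 0.229% and 2.09%.

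**Figure D2:**
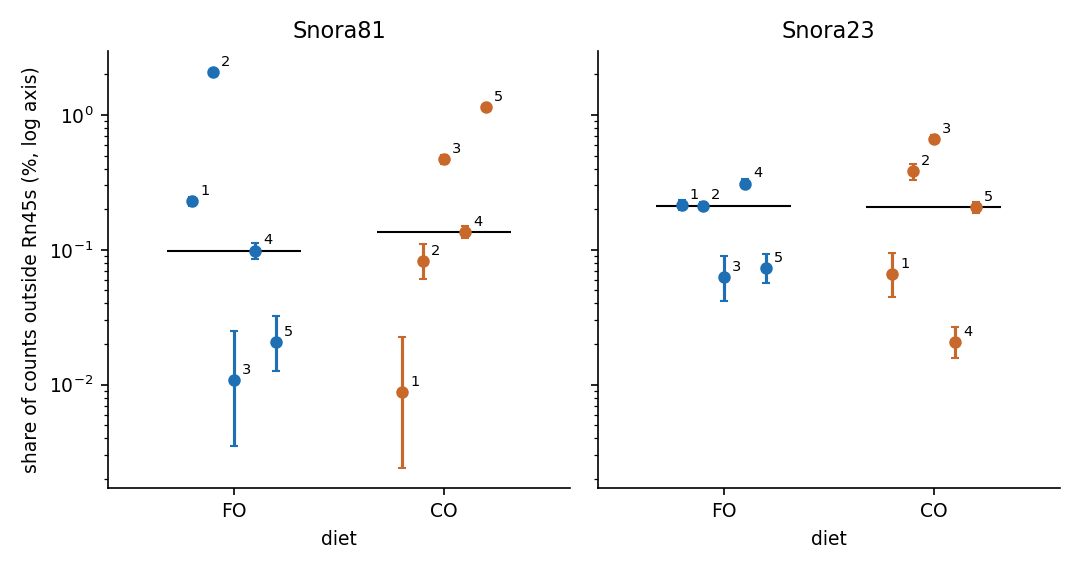
Share of the counts outside Rn45s (%, log axis) of Snora81 (left) and Snora23 (right) in each mouse by diet. Points are mice with their number, bars are 95% exact Clopper-Pearson intervals of the share, and horizontal lines are medians; the FO and CO points overlap for both genes, and FO2 and CO5 lead for Snora81 but lie in the middle for Snora23.

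Whether the diet changed these RNAs was tested with edgeR's quasi-likelihood test across all genes, with the study's threshold of an unadjusted p under 0.05. Of the 110 snoRNA genes, 2 passed the low-count filter, Snora81 and Snora23, and 0 of them were called, where 2.91% of the 2438 genes tested were called, 1.68% higher and 1.23% lower in the FO group (0 after Benjamini-Hochberg adjustment). DESeq2 called 0 of the 2 as well, and 2.54% of all genes.

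Snora81 had 1719 ± 3271 CPM (SD, n = 5) in the FO group and 1180 ± 1569 (SD, n = 5) in the CO group. The edgeR log2 fold change, FO over CO, was 0.54 with a standard error of 1.08 (95% interval -1.58 to 2.66, unadjusted p = 0.624, adjusted p = 0.998). On log2 CPM the direction was the opposite, with a mean of 8.32 for FO and 8.78 for CO mice (two-sided exact permutation test, p = 0.833), and the median shares, 0.0984% and 0.136%, ran that way too. The sign of the edgeR value also rested on a single mouse. Without FO2 the edgeR log2 fold change was -2.12 (unadjusted p = 0.0204, adjusted p = 0.670, the lowest over its alternatives), in a fit where 7.26% of all genes were called, and without CO5 it was 1.71. Without both FO2 and CO5 it was -0.93.

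Snora23 had 538 ± 322 CPM (SD, n = 5) in the FO group and 813 ± 779 (SD, n = 5) in the CO group. Its edgeR log2 fold change was -0.57 with a standard error of 0.61 (95% interval -1.78 to 0.63, unadjusted p = 0.361, adjusted p = 0.998), and the two-sided exact permutation test gave p = 0.968. The mean log2 CPM of Snora23 was 8.81 for FO and 8.84 for CO mice, and the median shares, 0.213% and 0.206%, ran the other way. Leaving out CO3, the mouse highest in Snora23, brought the edgeR log2 fold change to 0.078. The intervals of both genes were wide, and a difference of 2-fold in either direction for Snora81 lay inside its interval.

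**Figure D3:**
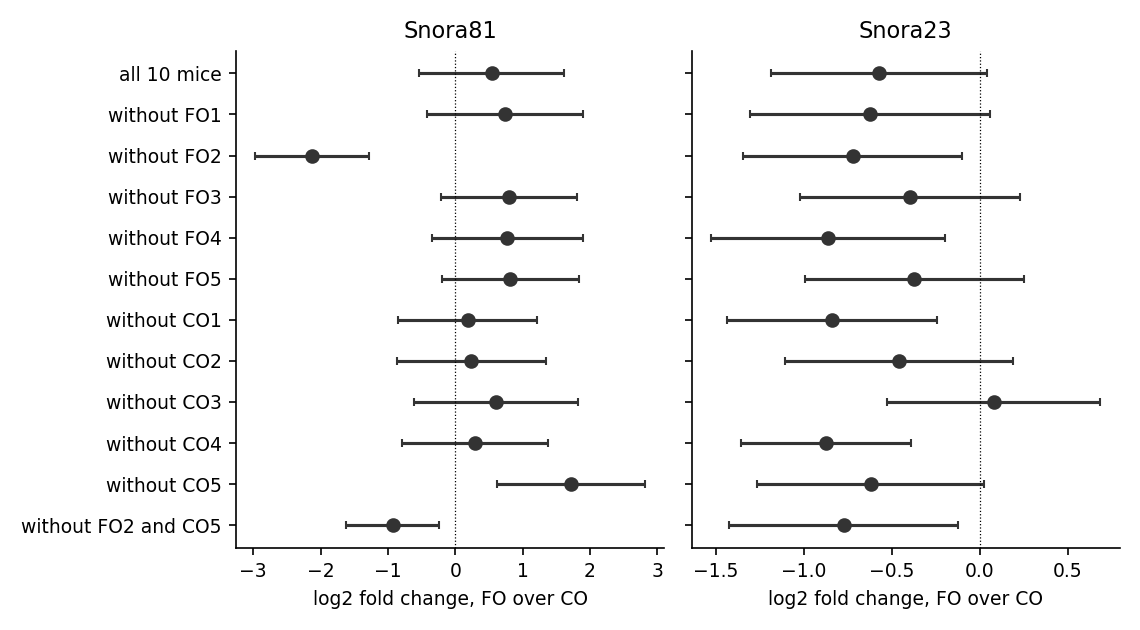
edgeR log2 fold change, FO over CO (horizontal axis), of Snora81 (left) and Snora23 (right) with all 10 mice, without each mouse in turn and without FO2 and CO5 together. Points are estimates and bars are standard errors; the Snora81 estimate moves from 0.54 to -2.12 without FO2 and to 1.71 without CO5, and the Snora23 estimate passes 0 only without CO3.

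The 28 detected genes were also read from an edgeR fit without the low-count filter, which kept every gene with a count, 14161 in all. Among the 28, 9 had no count in any CO mouse, 7 of them with counts only in FO2, and 2 had none in any FO mouse, so directions and folds are not summed up over the list. Of the 28, 3 were called at an unadjusted p under 0.05, where 4.15% of all genes tested were called, and 0 after adjustment, where 0.00706% were. The calls were 2 up in the FO group, against 2.58% of all genes, and 1 down, against 1.57%. DESeq2 called 0 of the 28, and 0.975% of all genes. Snora81 and Snora23 kept their direction there (unadjusted p = 0.0574 and 0.0684 by edgeR), with a standard error for Snora81 of 0.29 in place of 1.08. Most of these values rest on very few counts: 11 of the 28 genes had counts in 1 mouse only, and 13 had more than 10 counts over all mice. FO2, the deepest mouse, had counts on 24 snoRNA genes, the other mice on 5 to 12.

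Snora30 was the most abundant of the 3. Its counts were 6, 139, 7, 21 and 4 in FO1 to FO5 and 1, 7, 11, 3 and 11 in CO1 to CO5, so that FO2 held 139 of 210. The share in FO2 was 0.0294% of the counts outside Rn45s, and the other mice lay between 0.00107% and 0.0151%. The edgeR log2 fold change was 1.50 with a standard error of 0.40 (unadjusted p = 0.000209, adjusted p = 0.401), whereas the two-sided exact permutation test gave p = 0.262 and DESeq2 an unadjusted p of 0.0587. Without FO2 the edgeR log2 fold change was 0.41 (edgeR, unadjusted p = 0.403). Under scaling by library size alone it was 1.26 (edgeR, unadjusted p = 0.0557).

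The other 2 genes called there had 13 and 6 counts. Snord22, a C/D RNA of the non-coding host Snhg1, had 1, 2, 0, 0 and 0 counts in the FO mice and 0, 1, 4, 1 and 4 in the CO mice (edgeR log2 fold change -2.07, standard error 0.998, unadjusted p = 0.0384, adjusted p = 0.905). Summed over mice, its share in the FO group was 0.212 times that in the CO group, with a counting interval of 0.0374 to 0.822. That interval takes reads as independent and leaves out the spread between mice, so it is not a test of the diet. CO3 and CO5 held most of the CO counts. All 6 counts of Snora68, an H/ACA RNA, came from FO2 (edgeR, unadjusted p = 0.0242, adjusted p = 0.905), and no fold is given against a CO group at 0 with so few counts. The exact permutation test gave p = 0.119 for Snord22 and p = 1 for Snora68. By edgeR the call of Snord22 was lost without FO3, FO4, FO5, CO2, CO3 or CO5 (unadjusted p of up to 0.153, without CO3), and that of Snora68 without CO4 or CO5 (unadjusted p = 0.0607 and 0.0543).

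The C/D class had few counts. It held 202 of the 19254 snoRNA counts (1.05%), 15, 73, 4, 19 and 8 in FO1 to FO5 and 2, 8, 23, 21 and 29 in CO1 to CO5. As shares of the counts outside Rn45s these were 0.00599%, 0.0154%, 0.00861%, 0.00806% and 0.00876% in the FO mice and 0.00443%, 0.0144%, 0.0169%, 0.00748% and 0.0113% in the CO mice. Between the lowest and highest mouse the C/D share differed 3.81 times, where the H/ACA share differed 30.2 times. The FO and CO mice overlapped, with means of 0.00937% ± 0.00356 (SD, n = 5) and 0.0109% ± 0.00504 (SD, n = 5).

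Of the snoRNA counts of a mouse, C/D genes took 1.32%, 0.656%, 8.70%, 1.89% and 8.08% in FO1 to FO5 and 5.41%, 2.91%, 1.45%, 4.53% and 0.832% in CO1 to CO5. The share was lowest in FO2 and CO5, where Snora81 was highest, and highest in FO3 and FO5, where few snoRNA counts were found at all. Snora81 made up 88.8% and 83.6% of the snoRNA counts in FO2 and CO5. A low C/D share of that total in those mice thus follows from Snora81 and says nothing on the C/D RNAs themselves. With Snora81 and Snora23 set aside, an alternative chosen after the data were seen, C/D genes made up 30.5% of the remaining snoRNA counts in FO2 and 33.3% to 84.0% in the other mice.

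Snord15b, which lies in Rps3 with Snord15a, was the leading C/D gene. It had 10, 24, 2, 13 and 1 counts in FO1 to FO5 and 1, 4, 8, 12 and 17 in CO1 to CO5, and was the only C/D gene with a count in every mouse. Its shares ran from 0.00109% in FO5 to 0.00719% in CO2, and the diets overlapped (edgeR fit of genes with any count, log2 fold change -0.27, standard error 0.47, unadjusted p = 0.559). In FO2, CO5 and CO3, the mice with the most Snora81, the Snord15b share was 0.00507%, 0.00663% and 0.00587%. In FO5, FO3 and CO1, the mice with the least Snora81, it was 0.00109%, 0.00430% and 0.00221%, on 1 or 2 counts each. Snord15a had 14 counts, 11 of them in FO2.

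The other C/D genes with the highest mean shares were Snord104, Snord89, Snord22, Snord38a and Snord87, each with 9 to 13 counts over all mice. Snord89 had 9 counts in 5 mice. Snord38a had 11. Snord87, in the non-coding host Snhg6, had 13 counts, as had Snord49b. Snord17, the longest C/D RNA at 238 bases, had 11. Snord49b, Snord87, Snord104, Snord38a, Snord89 and Snord17 were not called between the diets in the fit of genes with any count.

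Among the H/ACA genes, Snora21 followed Snora30 with 3, 8, 0, 1 and 1 counts in FO1 to FO5 and 0, 2, 2, 1 and 2 in CO1 to CO5 (edgeR fit of genes with any count, log2 fold change 0.21, standard error 0.83, unadjusted p = 0.802). It sits in Rpl23, a ribosomal protein gene with 2059 counts. Snora17 had 6 counts in 3 mice and Snora44, in the non-coding host Snhg12, had 4 in 2 mice. Without Snora81 and Snora23 the H/ACA genes summed to 9, 166, 8, 25 and 5 counts in the FO mice and 1, 9, 15, 4 and 15 in the CO mice. FO2 was again highest, at 0.0351% of the counts outside Rn45s, and FO3 was second at 0.0172%.

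Over both classes together, the median annotated length was 128.5 bases for the detected genes and 86 bases for those at 0. All 4 snoRNA genes over 150 bases had counts, as had 17 of 42 (40.5%) from 100 to 150 bases and 7 of 62 (11.3%) under 100 bases. The pooled bins mix length with class, since all 62 genes under 100 bases are C/D. Within the H/ACA class the median length was 132 bases for the detected and for the undetected genes alike, and 11 of 33 genes of 100 to 150 bases were detected. Within the C/D class the medians were 98.0 and 79.5 bases, and 6 of 9 genes of 100 to 150 bases were detected. Snora81 and Snora23 belong to the longest 4, and the other 2, Snord17 and Snora74a, had 13 counts together. The part of length in these counts was not tested. Per 100 bases of annotated length, Snora81 had 8256 counts over all mice, Snora23 had 2228, Snora30 had 162 and Snord15b had 63.4. The size selection of the libraries is not given in the sources used here.

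**Figure D4:**
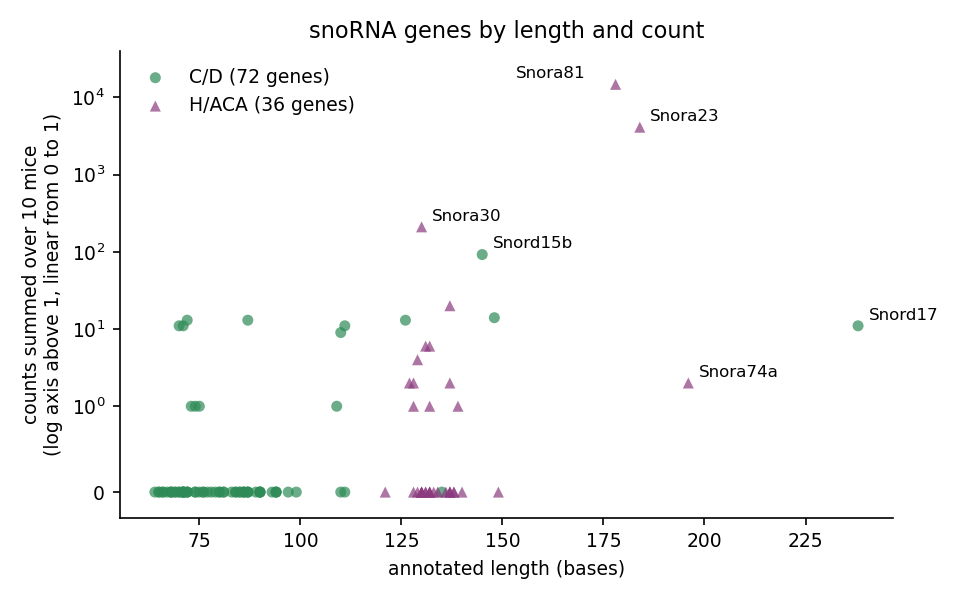
Annotated length in bases (horizontal axis) against the counts summed over 10 mice (vertical axis, log above 1 and linear from 0 to 1) of the 72 C/D and 36 H/ACA genes with an annotated length. Short C/D genes line the axis at 0, 17 of 42 genes of 100 to 150 bases had counts, and Snora81 and Snora23 stand far above the other genes over 150 bases.

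Of the 110 genes, 19 have at least 1 other annotated gene of 95% or higher identity over at least 90% of their length, 5 of the 28 detected and 14 of the 82 at 0. How reads that fit several such places were counted is not given in the sources used here, so the counts of these genes are uncertain. Snora81 has 1, Gm22519 on chromosome 15, with 98.9% identity over 178 bases, and Snora23 has none. Gm22519 was not in the table. Snora23 lies across from the antisense gene 1600010M07Rik, and the strand setting of the counting is not given.

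The hosts of the snoRNAs were compared next, since a host and its intronic RNA come from the same transcript. Within a host lie 104 of the 110 genes, in 77 hosts, of which 69 are in the table and 63 had counts. Eif4a2, the host of Snora81, had 51, 68, 15, 55 and 28 counts in FO1 to FO5 and 13, 11, 33, 49 and 26 in CO1 to CO5. Its standard deviation of log2 CPM over the mice was 0.43, close to the median of 0.47 of the 2438 genes that passed the low-count filter, beside the 2.71 of Snora81. For each Eif4a2 count there were 11.2, 145, 0.333, 4.22 and 0.679 Snora81 counts in the FO mice and 0.308, 4.18, 19.4, 7.78 and 112 in the CO mice. FO2 and CO5, highest in Snora81, were the lowest 2 in the Eif4a2 share, at 0.0144% and 0.0101%. That was not particular to Eif4a2. The same mice were lowest in the shares of Rps3 (0.0945% and 0.107%) and Gas5 (0.0484% and 0.0601%), hosts of other snoRNAs. The share of Rpl23 was lowest in CO4 and that of Ipo7 in FO5. Since Snora81 overlaps an Eif4a2 exon, reads there may be shared between the 2 genes.

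Snora23 parted from its host less widely. Ipo7 had 20, 32, 5, 10 and 2 counts in FO1 to FO5 and 2, 4, 7, 7 and 24 in CO1 to CO5, and did not pass the filter. For each Ipo7 count there were 26.8, 31.4, 5.80, 72.8 and 33.5 Snora23 counts in the FO mice and 15.0, 53.0, 129, 8.29 and 22.0 in the CO mice. The ratio was highest in CO3 and lowest in FO3, 22.3 times apart, where that of Snora81 to Eif4a2 spanned 472 times. The low counts of Ipo7 limit these ratios.

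**Figure D5:**
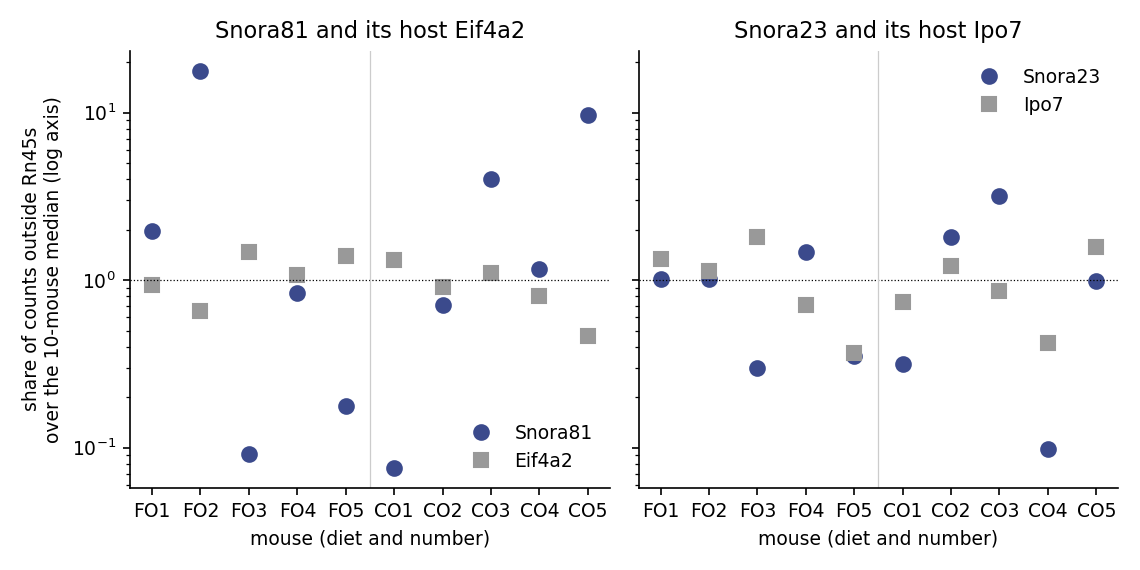
Share of the counts outside Rn45s of Snora81 and its host Eif4a2 (left) and of Snora23 and its host Ipo7 (right) in each mouse, over the median of the 10 mice (log axis). Eif4a2 stays near its median and is lowest in FO2 and CO5, where Snora81 is highest. Those mice were also lowest in the shares of Rps3 and Gas5, which are not plotted.

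Counts of host and snoRNA also stood apart in other hosts, where a 0 need not mean that the snoRNA was absent. Rps12, the most abundant host with 11408 counts, holds Snord100 with 1 count and Snora33 with 0. Rpl13a, with 4724 counts, holds 4 C/D genes, all at 0, and Rpl23a, with 2959, holds 3, all at 0. Snord100 and the C/D genes of Rpl13a and Rpl23a are all under 100 bases, where 7 of 62 snoRNA genes had counts. Snord100 and Snora33 also overlap an exon of Rps12, where reads may be shared between genes. Rps3, with 2580 counts, was the only host of 2 C/D genes that were both detected. Of the 45 hosts that passed the filter, 0 were called between the diets by edgeR (smallest unadjusted p = 0.163), near the 2.91% of all genes, with log2 fold changes from -0.35 to 0.42 and a median of 0.09. The log2 fold change of Eif4a2 was 0.28 (standard error 0.29, edgeR, unadjusted p = 0.340), which was -0.22 under scaling by library size alone, where the median of all genes moved to -0.55. Gas5, a host without a protein product, had 1348 counts, and its single listed snoRNA, Snord47, was at 0.

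Among the genes for proteins that package and mature snoRNAs, none that could be tested with the default filter was called. Of the C/D core proteins, Nop56 and Nop58, the scaffold of the particle, passed the filter, with log2 fold changes of 0.05 (standard error 0.45) and 0.14 (standard error 0.41), both of which turned negative under scaling by library size alone. Fbl, the fibrillarin gene and the methylase of the particle, had 28 counts and was not tested in that fit. Of the H/ACA core proteins, only Nop10 passed (-0.29 on the log2 scale, standard error 0.31). Dkc1, the dyskerin gene and the pseudouridine synthase, had 160 counts, Gar1 75 and Nhp2 35. By edgeR, 0 of the 3 core genes tested (Nop56, Nop58 and Nop10) were called, and 0 of the 3 genes tested for particle assembly, 0 of 2 for snoRNA trimming and decay and 0 of 12 for the processing of ribosomal RNA precursors, where 2.91% of all genes were. DESeq2 called 0 of the 6 core and assembly genes. Most members of these lists were too low to test.

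The mice high in Snora81 were also high in Malat1, a long RNA kept in the nucleus. Malat1 took 0.928%, 8.53%, 0.176%, 0.262% and 0.322% of the counts outside Rn45s in FO1 to FO5 and 0.135%, 0.293%, 1.05%, 0.374% and 6.15% in CO1 to CO5. The 5 leading mice were in the same order for both RNAs, FO2, CO5, CO3, FO1 and CO4. Malat1 had a standard deviation of log2 CPM of 2.15 over the mice, and its edgeR log2 fold change between the diets was 0.45 (standard error 1.05, unadjusted p = 0.673). Neat1, the other long nuclear RNA tested, had shares of 0.00719%, 0.0209%, 0.00215%, 0.00721% and 0.0131% in FO1 to FO5 and 0.0111%, 0.00899%, 0.0103%, 0.00641% and 0.0133% in CO1 to CO5. Neat1 was highest in FO2 and next highest in CO5. FO5, one of the mice low in Snora81, was nearly level with CO5.

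Some other measures moved with the same mice and some did not, and their part in the snoRNA share was not tested. The alveolar type 2 list was highest in FO2 (0.993% of the counts outside Rn45s) and CO5 (0.848%) and between 0.344% and 0.764% in the other mice. A list of 6 cardiac muscle genes, all detected and led by Myh6, summed to 0.0264%, 0.0642%, 0.0301%, 0.0386% and 0.0153% in FO1 to FO5 and 0.00885%, 0.0180%, 0.0279%, 0.0110% and 0.0452% in CO1 to CO5, again highest in FO2 and CO5. The list of 3 club cell genes, led by Scgb1a1, was lowest in CO5 (0.263%) and FO2 (0.311%) and between 0.325% and 0.815% in the other mice. The other lung lists were highest elsewhere, that of endothelium in CO2 (0.0953%), that of macrophages in FO3 (0.166%) and that of alveolar type 1 cells in CO4 (0.267%). Of 5 red blood cell genes, only Alas2 had counts and all 4 globin genes were at 0. Rn45s was below 60% in FO2, CO5 and CO4, and CO4 had a snoRNA share of only 0.165%. The 68 histone genes, whose messages also lack a poly(A) tail, took 0.0269% to 0.0753% of the counts outside Rn45s, with FO3 highest and CO5 lowest. Libraries were made with a kit that selects poly(A) RNA or one that removes ribosomal RNA, and which mouse had which is not given in the sources used here.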

How the data were processed

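For 10 lung libraries the authors deposited counts, the whole reads assigned to each gene symbol, not normalized. Per the labels and the study's methods, single-end reads were aligned to mm10 with STAR 2.4.0f1, handled with SAMtools 0.1.19 and counted with htseq-count. The annotation and strand setting are not given in the sources used here. Totals were 229766 to 1124963 counts per mouse.

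Counts were tested with edgeR 4.0.16 (R 4.3.3): TMM, the default filter (minimum count 10, minimum total 15), quasi-likelihood test, unadjusted p under 0.05 as in the study, and Benjamini-Hochberg adjustment. CPM were computed from these counts, log2 CPM with a prior count of 2. The 28 detected genes were also read from a fit of genes with any count. Alternatives were DESeq2 1.42.0, RLE factors, library size alone, no Rn45s, a replicate block, other members and leaving out mice. Sequences, hosts and lengths came from GENCODE M21, matched by symbol (108 of 110), and copies from blastn 2.17.0. The edgeR and DESeq2 fits were tested on simulated counts drawn with a single dispersion for all genes, unlike the wide spread of Snora81.

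Members and gene lists were chosen with earlier results of these data known. Genes named were the 6 of each class with the highest mean share, those that passed the filter or were called, core proteins, hosts and nuclear RNAs fixed by name. Other members were named after their values were seen. Each library was 1 mouse.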

Additional observations from a re-analysis of the deposited data

Results flagged for a closer look

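The shares of the snoRNA genes themselves chose the genes and were not tested for distant mice. Among 14 sets of 5 mice of 1 diet examined for other measures (Rn45s, depth, Malat1, Neat1, the hosts Eif4a2 and Ipo7 and the histone genes) with Dixon's test for a single distant value, 2 held one, where chance gives about 1 in 20, or 0.7. Both were shares of Malat1 in the counts outside Rn45s. FO2 stood apart from the other FO mice with 8.53%, and CO5 from the other CO mice with 6.15%. These mice were also the highest in Snora81, so the flags are not independent of the spread that chose the genes.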

How the results depend on the processing

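The median snoRNA share (0.426% FO, 0.494% CO) was 0.267% to 0.439% and 0.330% to 0.829% with a mouse left out, 0.0902% and 0.129% of all counts with Rn45s, and, in alternatives chosen after seeing the data, 0.224% and 0.223% without Snora81 and 0.0187% and 0.0172% without Snora81 and Snora23. Scaling by library size alone moved the median log2 fold change of all 2438 genes to -0.55. It turned Eif4a2 to -0.22, Nop56 to -0.45 and Nop58 to -0.31. Snora81 (0.54) was reversed with the replicate block (-0.47) and without FO2 and CO5 (-0.93), and ranged from -2.12 to 1.71 with each mouse left out. Snora23 (-0.57) ranged from -0.87 to 0.078 (without CO3). The replicate block gave -0.11 for Nop56, and with a mouse left out Nop56 ranged from -0.17 to 0.22 over 7 fits (it did not pass the filter without FO2, CO3 or CO5) and Nop58 from -0.16 to 0.47. The replicate numbers did not pair the mice: same-numbered mice correlated at -0.12 on average and 0 mice correlated best with their own number, and the block called 0 of 2 snoRNA genes and 55 of all genes against 71. Among genes with any count the block called 1 of 28 snoRNA genes in place of 3, and 183 of all genes in place of 587. Snord22 and Snora68 were the 2 no longer called (edgeR with the replicate block, unadjusted p = 0.151 and 0.400). The number of snoRNA genes called was 0 with all mice, 3 among genes with any count and 1 without Rn45s (Snora30, with 106 of 3484 genes called in all), and 0 to 1 with a mouse left out (Snora81 without FO2, with 154 of 2120; Snora30 without FO3, with 80 of 3252, or without FO5, with 71 of 3094). Core and assembly genes called numbered 0, and 2 of 22 among genes with any count, where 4.15% of all genes were called. The median C/D share of snoRNA counts (1.89% FO, 2.91% CO) became 5.86% and 5.07% without Snora81 and, also chosen after seeing the data, 43.2% and 65.9% without Snora81 and Snora23. With a mouse left out it ranged from 1.61% to 4.99% in the FO group and from 2.18% to 3.72% in the CO group. The cause was not tested. Library size alone called 36 of 2438 genes. Among genes with any count the alternatives called 0 to 4 of the 17 to 28 snoRNA genes they tested, and from 138 of 14161 (DESeq2) to 782 of 13689 (without FO2) of all genes. Depth is a limit: CO1 and FO3 had 45177 and 46470 counts outside Rn45s, and FO2 had 473254. FO2 had counts on 24 of the 110 snoRNA genes, and 82 were at 0 in every mouse.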

Other observations

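Small RNAs of the nucleus outside the snoRNA symbols were mostly at or near 0. Scarna17, a guide RNA of the Cajal body, had 16 counts, of which 10 were in FO2, 5 in CO5 and 1 in FO1. Rpph1, the RNA of ribonuclease P, had 40 counts with 16 in FO2, and Rmrp, the RNA of the related ribonuclease MRP, had 4, of which 3 were in FO2 and 1 in FO1. Terc, the telomerase RNA, was at 0 in every mouse. The brain-enriched Snord116 genes, 3 in the table, were at 0, and 4 of 5 neuron genes had a few counts, at most 0.00294% of the counts outside Rn45s in a mouse. With genes of any count, 2 of 22 genes for core and assembly proteins were called by edgeR, Znhit3 with 4 counts and Znhit6, where 4.15% of all genes were called.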
